A study of Mus musculus with 2 samples.

Results

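Skeletal muscle genes were examined in bone-forming cells of wild-type mice and of mice with all 3 Tet genes deleted. The 10 genes were 7 regulators (Myod1, Myf5, Myf6, Myog, Mef2c, Pax3 and Pax7) and 3 structural genes (Des, Ckm and Acta1), out of 21938 protein-coding genes on the chromosomes analysed. They were chosen by name, with earlier results of these data known. Each was taken with 25 kb on either side of its GENCODE M21 gene model on the mouse genome GRCm38.

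TET proteins oxidize 5-methylcytosine to 5-hydroxymethylcytosine and further products, a route by which methylation is lost from DNA, so their deletion is usually followed by higher methylation at regulatory elements. Skeletal muscle arises from precursors marked by PAX3 and PAX7. The myogenic factors MYF5, MYOD1, MYF6 and MYOG then drive muscle commitment and differentiation, and MEF2C acts with them. Structural genes such as Ckm and Acta1 follow late. Osteoblasts do not follow this route, although MEF2C has its own roles in cartilage, bone, heart and brain.

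The series measured cytosine methylation by whole-genome bisulfite sequencing (WGBS) in primary osteoblasts of 3-day-old C57BL/6 mice. The WT library was labelled wild type, and whether its donors carried the floxed alleles is not given in the sources used here. The TCKO library came from mice that carried loxP-flanked (fl) alleles of all 3 Tet genes (Tet1 fl/fl, Tet2 fl/fl and Tet3 fl/fl) together with Prx1-Cre. The Prx1 promoter drives Cre in limb bud mesenchyme and part of the skull mesenchyme, and the cells were isolated from calvarial bone and cultured for 3 days before DNA was taken. Each genotype had 1 library, so no difference between genotypes had a replicate check. Every test below compared the reads of 2 libraries, not the genotypes. Bisulfite sequencing reads 5mC and 5hmC alike. The cells were also divided for RNA, which was not analysed here, so the methylation of a muscle gene is given without its transcript level.

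The WT library held 261127589 CG calls and the TCKO library 223645082, with a median of 4 calls per covered cytosine in each, and 70.2% and 76.3% of these calls were methylated. Each targeted gene held a stretch where the TCKO library had few calls, found by a rule made after the calls were seen. In these stretches Tet1 had 755 calls in WT and 70 in TCKO, Tet2 had 122 and 13, and Tet3 had 133 and 9. Among 8 osteoblast genes, the TSS windows of the collagen genes Col1a1 and Col1a2 were at 0.613% and 1.80% in WT. The osteoblast transcription factor gene Runx2 was at 13.8% in WT and 30.7% in TCKO. The others were not all low in WT: Sp7 was at 14.3%, Alpl at 32.1%, Spp1 at 43.3%, Ibsp at 45.6% and Bglap at 69.7%. The median of the 8 was 23.2% in WT, beside 25.9% over the start windows of all genes.

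The sequences below are the 200 bp bins that carried the changes described further on, 1 for each of 5 genes, as they stand in the GRCm38 reference. Capitals mark the CG dinucleotides, whose cytosines on both strands gave the calls.
Mef2c intron 2, chr13:83537201-83537400, plus strand: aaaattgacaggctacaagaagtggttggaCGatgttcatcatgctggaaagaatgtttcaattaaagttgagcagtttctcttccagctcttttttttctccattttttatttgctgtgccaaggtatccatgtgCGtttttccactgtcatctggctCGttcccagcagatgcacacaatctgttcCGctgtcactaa
Pax3 intron 4, chr1:78173601-78173800, plus strand: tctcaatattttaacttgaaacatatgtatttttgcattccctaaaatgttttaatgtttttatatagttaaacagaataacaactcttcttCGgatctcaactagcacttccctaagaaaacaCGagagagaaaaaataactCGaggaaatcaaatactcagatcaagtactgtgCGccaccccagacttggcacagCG
Pax7 upstream, chr4:139846801-139847000, plus strand: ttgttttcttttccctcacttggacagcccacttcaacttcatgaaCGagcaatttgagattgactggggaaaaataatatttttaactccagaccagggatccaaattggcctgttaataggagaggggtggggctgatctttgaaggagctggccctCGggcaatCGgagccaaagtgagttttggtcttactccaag
Des upstream, chr1:75357201-75357400, plus strand: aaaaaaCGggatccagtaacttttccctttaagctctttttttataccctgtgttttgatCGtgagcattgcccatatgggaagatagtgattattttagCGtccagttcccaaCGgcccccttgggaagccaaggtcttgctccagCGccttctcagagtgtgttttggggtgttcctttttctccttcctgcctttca
Myog downstream, in an intron of Ppfia4, chr1:134303001-134303200, plus strand: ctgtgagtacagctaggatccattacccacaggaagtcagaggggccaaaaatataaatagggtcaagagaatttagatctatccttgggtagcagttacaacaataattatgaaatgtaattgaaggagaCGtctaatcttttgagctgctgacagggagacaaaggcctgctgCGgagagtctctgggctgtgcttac

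These stretches held few CG dinucleotides, from 2 in the Myog bin to 5 in the Pax3 and Des bins, and the difference between the libraries extended over all of them. In the Mef2c bin, WT had 1 methylated call of 18 at the first CG, 0 of 21 at the second, 3 of 21 at the third and 2 of 21 at the last. TCKO had 15 of 20, 18 of 25, 21 of 24 and 21 of 22 at the same CGs. In the Pax3 bin, the first 3 CGs had no methylated call among 28, 18 and 14 in WT, against 38.2%, 51.7% and 45.5% in TCKO. The Pax7 bin rested on fewer reads, and rose from 0 of 8 to 2 of 8 methylated calls at the first CG, from 1 of 9 to 7 of 8 at the second and from 2 of 9 to 7 of 8 at the last. In the Des bin the 5 CGs lay between 22.2% and 37.5% in WT and between 63.6% and 100% in TCKO.

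The transcription start was considered first. Levels are methylated calls over all calls, pooled within 1 kb on either side of the transcription start site (TSS), with 95% Wilson intervals that cover counting error only. A window was called where the levels differed by at least 10 percentage points with an adjusted p below 0.05 (2-sided Fisher exact test, Benjamini-Hochberg adjustment over all protein-coding genes with at least 20 calls in each library). By this rule 16.1% of the 21696 windows tested were called higher in TCKO and 1.52% lower. Of the 10 muscle genes, 3 were called higher (Des, Myf5 and Myf6) and 0 lower. Their median difference was 4.86 points, beside 2.90 points over all genes.

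In WT the 10 start windows spanned nearly the whole range of methylation. The paired-box genes Pax3 and Pax7 were lowest, at 2.67% (interval 1.45 to 4.84, 375 calls) and 3.37% (2.12 to 5.33, 504 calls). Acta1, which encodes skeletal muscle actin, was at 29.3% (20.5 to 39.9, 82 calls), Des at 31.6% (26.7 to 36.8, 320 calls) and Myod1 at 32.1% (25.7 to 39.1, 184 calls). The intervals of Pax3 and Pax7 overlapped, as did those of Acta1, Des and Myod1. Ckm, the gene of muscle creatine kinase, followed with 64 of 128 calls methylated (interval 41.5% to 58.5%), an interval that just met that of Myog. Myog, Myf5 and Myf6 could not be separated from each other at 65.2%, 65.8% and 66.9%, and Mef2c was highest at 81.2% (76.4 to 85.2, 298 calls). The genes with the most CG dinucleotides in these windows were Des with 110, Pax7 with 109, and Pax3 and Myod1 with 91 each, while Mef2c had 19. Des thus had about as many as Pax7 but a far higher level.

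**Figure D1:**
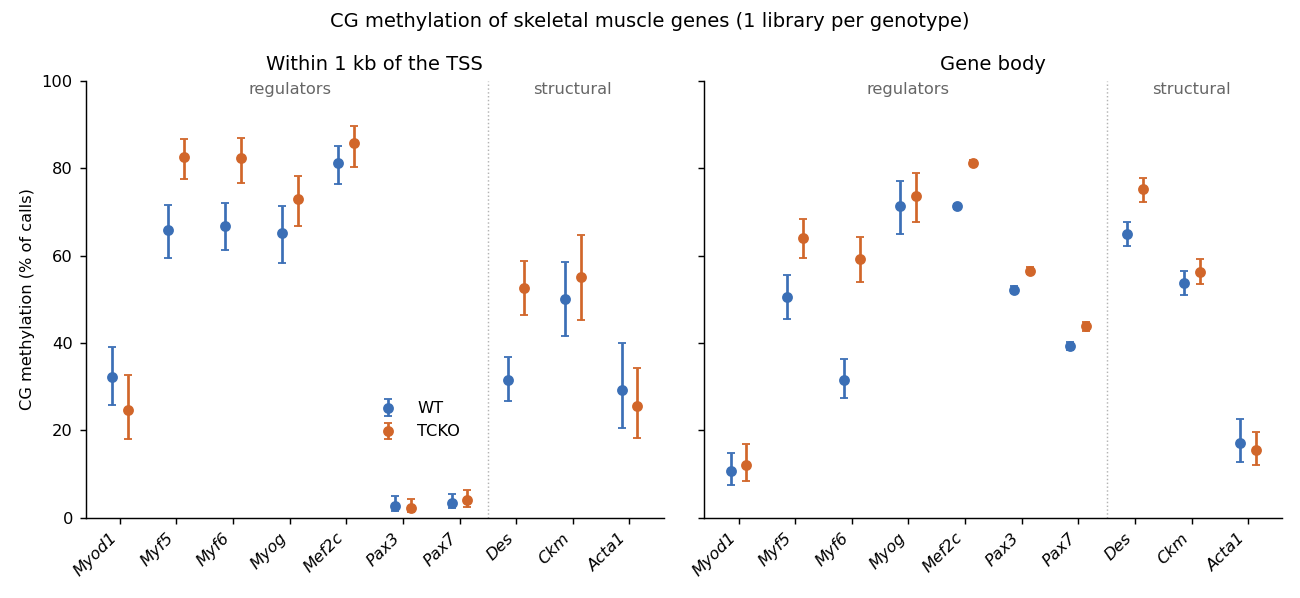
CG methylation (% of calls, y axis) of the 10 muscle genes (x axis) within 1 kb of the TSS and over the gene body in WT (blue) and TCKO (orange). Points are pooled levels and bars 95% Wilson intervals. Myf5, Myf6 and Des stand higher in TCKO at the TSS, where Pax3 and Pax7 are below 5% in both libraries.

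Among the regulators, the linked pair Myf5 and Myf6 carried the called start windows. Myf5, a factor of early muscle commitment, rose from 65.8% (154 of 234 calls) to 82.7% (215 of 260 calls), a difference of 16.9 points (95% interval 9.20 to 24.4; Fisher exact test, adjusted p = 2.42e-04). Myf6, which encodes MRF4, a factor of muscle differentiation, rose from 66.9% (200 of 299) to 82.4% (173 of 210), a difference of 15.5 points (7.83 to 22.6; Fisher exact test, adjusted p = 9.89e-04). Both genes were higher in TCKO on the plus and on the minus strand. With the narrower window of 500 bp on each side neither passed, at 7.15 points for Myf5 and 11.6 points for Myf6. As the mean of single cytosines with at least 4 calls in both libraries, the difference at Myf6 was only 2.95 points.

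The other regulators did not pass at the start. Myog, the gene of myogenin, had 65.2% and 72.9% (7.69 points; Fisher exact test, adjusted p = 0.229), although the 2 kb upstream, with 111 calls in WT and 132 in TCKO, passed at 48.6% and 65.2% (Fisher exact test, adjusted p = 0.0491). Mef2c had 81.2% and 85.7% (4.51 points; Fisher exact test, adjusted p = 0.373). Pax3, at 2.67% and 2.24%, and Pax7, at 3.37% and 3.98%, stayed below 5% in both libraries, with intervals of the difference from -2.84 to 1.88 points and from -1.87 to 3.30 points. Myod1, the best known determinant of the muscle lineage, had 32.1% in WT (184 calls) and 24.6% in TCKO (134 calls), a difference of -7.44 points (interval -17.0 to 2.70; Fisher exact test, adjusted p = 0.346). The sign at Myod1 was not stable, since the mean of single cytosines was 25.3 points higher in TCKO and the window of 500 bp on each side 3.41 points higher. Its start had few calls, and no direction can be read from it at this depth.

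Of the structural genes, Des was called. It encodes desmin, the intermediate filament protein of muscle. Its start window rose from 31.6% (101 of 320 calls) to 52.7% (129 of 245 calls), or by 21.1 points (12.9 to 28.9; Fisher exact test, adjusted p = 1.06e-05), and the difference was 16.6 points on the plus strand and 27.9 points on the minus strand. Ckm had 64 of 128 methylated calls in WT and 53 of 96 (55.2%) in TCKO, a difference of 5.21 points (Fisher exact test, adjusted p = 0.71). It is sensitive to the window: within 2 kb of the TSS it stood at 47.9% in WT and 64.5% in TCKO, which passed (Fisher exact test, adjusted p = 0.00207), while 500 bp on each side gave -1.76 points. Acta1 had 29.3% (82 calls) and 25.5% (110 calls), with differences of opposite sign on the 2 strands, -18.0 and 19.3 points.

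The position of the change within these windows differed between genes. At Des the gain lay before the TSS. The windows from 1000 to 500 bp and from 500 to 0 bp upstream stood at 37.0% and 36.6% in WT and at 76.9% and 69.2% in TCKO, whereas the first 500 bp after the TSS stood at 10.2% (98 calls) and 10.4% (67 calls). At Myf6 the gain lay after the TSS, in the gene itself. Its 4 successive windows of 500 bp from the TSS rose from 53.1% to 71.9%, from 31.2% to 65.2%, from 1.69% to 25.8% and from 41.2% to 66.8%, and the 2 windows before the TSS were already at 80.0% and 81.1% in WT. The window from 1000 to 1500 bp, with 59 calls in WT and 62 in TCKO, was thus nearly free of methylation in WT but not in TCKO.

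The immediate upstream stretches of Des and Myog were both taken from the RefSeq promoter table (GRCm38.p6). They are examples of a gene whose start window was called higher and of a stretch low in both libraries. Capitals mark CG.
Des upstream of the start, chr1:75360042-75360291, plus strand: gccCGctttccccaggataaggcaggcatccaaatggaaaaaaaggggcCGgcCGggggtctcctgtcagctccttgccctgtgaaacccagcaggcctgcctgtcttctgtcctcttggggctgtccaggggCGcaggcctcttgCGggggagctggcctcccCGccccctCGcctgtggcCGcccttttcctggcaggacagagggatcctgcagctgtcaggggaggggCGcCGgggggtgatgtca
Myog upstream of the start, chr1:134289754-134290003, plus strand: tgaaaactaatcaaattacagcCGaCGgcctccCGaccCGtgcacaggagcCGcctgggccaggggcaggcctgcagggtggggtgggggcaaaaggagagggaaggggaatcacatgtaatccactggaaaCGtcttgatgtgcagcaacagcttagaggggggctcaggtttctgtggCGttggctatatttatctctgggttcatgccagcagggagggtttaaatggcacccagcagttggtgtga

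The Des stretch, with 10 CGs, had 9 of 29 calls methylated in WT (31.0%, interval 17.3 to 49.2). The count in TCKO was 23 of 39 (59.0%, interval 43.4 to 72.9), and these intervals overlap. The Myog stretch, with 7 CGs, had 8.82% (3.05 to 23.0, 34 calls) and 7.14% (1.98 to 22.6, 28 calls). So this stretch of Myog was low in both libraries, while its 1 kb window was mostly methylated sequence around it. The whole 500 bp before the Myog TSS had 14.3% in WT (49 calls) and 23.9% in TCKO (46 calls). CAGCTG is a form of the E-box that the myogenic factors bind, and it reads the same on both strands. It occurred 1 time in the Des stretch and was not found in the Myog stretch. The stretches of Ckm and Acta1 also held 1 copy each. Other forms of the E-box were not searched for, so the Myog stretch may still hold an E-box. CAGCTG is present in 13.0% of all 32851 upstream stretches of 250 bases. RefSeq entries were matched for 7 of the 10 genes. Stretches not printed went both ways on few calls. Acta1 had 8.33% in WT (12 calls) and 29.6% in TCKO (27 calls), and Ckm had 78.6% (14 calls) and 57.9% (19 calls).

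**Figure D2:**
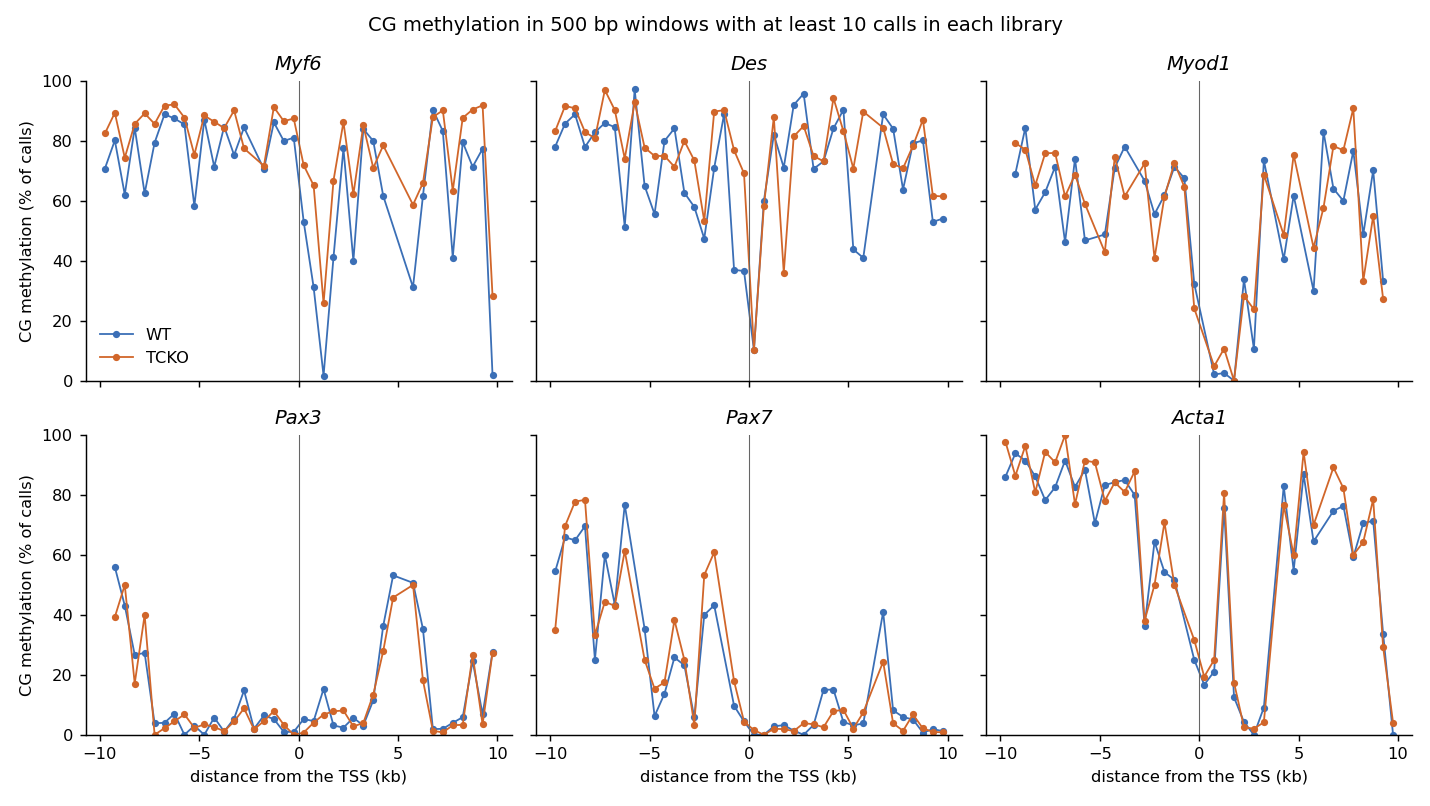
CG methylation (% of calls, y axis) in windows of 500 bp by distance from the TSS (kb, x axis) for 6 genes in WT (blue) and TCKO (orange), 1 point per window with at least 10 calls in each library. Des gains just before the TSS and Myf6 after it, and the low stretches at Myod1, Pax3, Pax7 and Acta1 are low in both libraries.

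Gene bodies, from the TSS to the end of the gene, gave a partly different set. Over all genes 15.0% of 21620 bodies were called higher and 0.722% lower, with a median difference of 5.65 points. Of the 10 muscle genes 4 were called higher (Myf5, Myf6, Mef2c and Des) and 0 lower, with a median of 4.43 points. The largest gain was in Myf6, from 31.6% (131 of 414 calls) to 59.2% (209 of 353), or 27.6 points (20.6 to 34.2; Fisher exact test, adjusted p = 8.65e-14). Myf5 rose from 50.5% to 64.1% (13.6 points; Fisher exact test, adjusted p = 2.34e-04). Des rose from 65.0% to 75.2% (10.2 points, interval 6.26 to 14.1; Fisher exact test, adjusted p = 1.40e-06), just above the minimum of 10 points. The difference over the Des body was 4.90 points on the plus strand and 17.3 points on the minus strand. The gain in Des was not spread over its body. The window from 5500 to 6000 bp after the TSS went from 41.0% (227 calls) to 89.8% (215 calls), while the first 5 kb stood at 71.2% in WT (705 calls) and 69.3% in TCKO (527 calls).

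The long genes had many calls, so that small differences passed the test. Mef2c, with 24927 calls in WT and 21215 in TCKO, rose from 71.3% to 81.3%, a difference of 10.04 points (9.27 to 10.8; Fisher exact test, adjusted p = 1.31e-139) that lay just above the minimum of 10. As the mean of single cytosines it was 9.96 points, which ended the call. Pax3 went from 52.2% to 56.5% (4.34 points; Fisher exact test, adjusted p = 2.88e-12) and Pax7 from 39.2% to 43.8% (4.51 points, adjusted p = 1.55e-09). Both differed between the libraries but by less than 10 points and by less than the median gene. The bodies of Myog (71.4% and 73.7%), Ckm (53.7% and 56.3%), Myod1 (10.6% and 12.0%) and Acta1 (17.1% and 15.5%) did not pass, with adjusted p of 0.663, 0.273, 0.737 and 0.709 (Fisher exact test).

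Myod1 and Acta1 shared a form: much of the short gene was poorly methylated in both libraries although the sequence before it was methylated. At Myod1 the windows of 500 bp from 500 to 2000 bp after the TSS had 2.08%, 2.56% and 0% in WT and 4.84%, 10.7% and 0% in TCKO. At Acta1 the windows from 1500 to 3000 bp had 12.5%, 4.26% and 0% in WT and 17.4%, 2.53% and 2.04% in TCKO, while the window from 1000 to 1500 bp stood at 75.8% and 80.8%. The 5 kb before Myod1 stood at 63.1% and 60.7%, and the 5 kb before Acta1 at 68.2% and 68.1%.

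Single elements were then examined in bins of 200 bp. To be testable, a bin needed 4 or more CG cytosines, read on average 4 times or more in both libraries. It was called at a difference of 40 points or more with an adjusted p below 0.05 (2-sided Fisher exact test, Benjamini-Hochberg adjustment over all testable bins). Of the 2534629 testable bins, 2.87% were called higher in TCKO and 0.0355% lower. The 10 regions held 996 testable bins, of which 41 (4.12%) were called higher and 0 lower. Mef2c alone had 23 of the 41 bins, and the other 9 genes together had 18 of 647 (2.78%). These cytosines were counted on each strand, so that 4 of them are 2 CG dinucleotides. With at least 8 cytosines, 14 of 256 bins (5.47%) were called, beside 3.24% of all such bins. Coverage was uneven, so the count covers only part of each region. Of the bins with at least 4 CG cytosines, 349 of 413 were testable at Mef2c but 91 of 498 at Pax7, 32 of 260 at Ckm and 30 of 143 at Myod1.

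By gene, the share of testable bins called was highest at Des, with 5 of 60 (8.33%), and next at Mef2c, with 23 of 349 (6.59%), and Myog, with 3 of 58 (5.17%). Among 21207 protein-coding genes with at least 20 testable bins, treated in the same way, 2.84% had a share as high as that of Des or higher, 6.16% as that of Mef2c and 11.5% as that of Myog. The median gene had 1.60% and 37.0% of the genes had none. Mef2c has a long region, and among 2220 genes with a similar number of testable bins 9.28% reached its share, with a median share of 2.97%. For Des and Myog the like figures were 2.76% of 15451 genes and 10.5% of 15376. Ckm (1 of 32, 3.12%), Myf6 (2 of 68, 2.94%), Pax3 (6 of 252, 2.38%), Myf5 (1 of 72, 1.39%) and Pax7 (1 of 91, 1.10%) were near or below the 2.87% of all bins. Myod1 with 30 testable bins and Acta1 with 40 had none, and counts this low cannot separate them from the background.

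**Figure D3:**
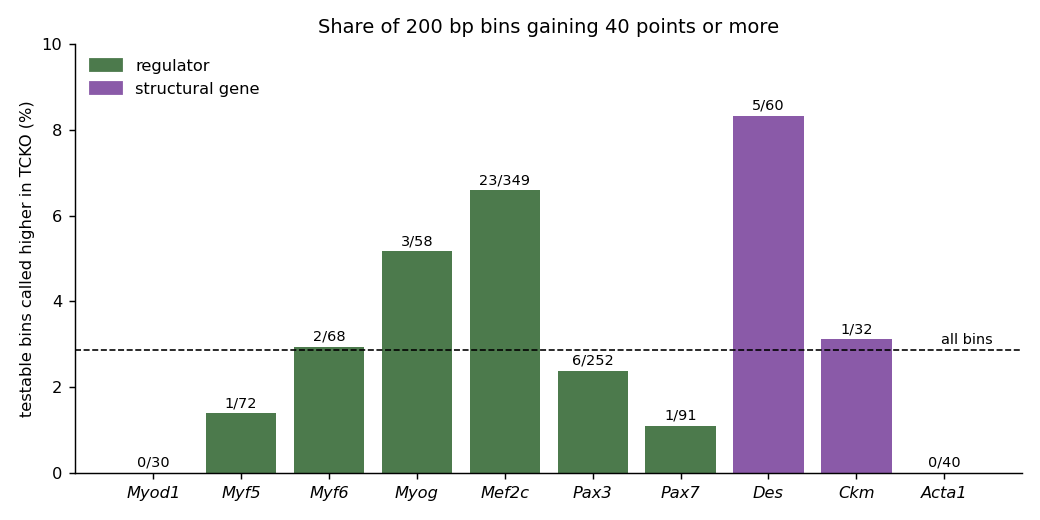
Share of testable 200 bp bins called higher in TCKO (%, y axis) for each gene with 25 kb on either side (x axis), regulators in green and structural genes in purple. Numbers over the bars are called and testable bins, and the dashed line is the 2.87% of all testable bins. Des, Mef2c and Myog stand farthest above the line.

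At Mef2c 22 of the 23 called bins lay within the gene (ENSMUSG00000005583, chromosome 13 from 83504034 to 83667080, plus strand) and 1 lay 22.5 kb upstream. Of those in the gene, 9 lay in intron 2 of the transcript used, 2 in intron 3, 6 in intron 4 and 5 in intron 7. The largest gain was in the bin of intron 2 printed above, 33.3 kb after the TSS, from 7.41% (6 of 81 calls) to 82.4% (75 of 91), or 75.0 points (Fisher exact test, adjusted p = 9.62e-22). A bin in intron 7, 146 kb after the TSS, rose from 15.7% (11 of 70) to 90.0% (45 of 50; Fisher exact test, adjusted p = 6.37e-14). These bins were mostly unmethylated in WT and mostly methylated in TCKO. A bin in intron 4, 100 kb after the TSS, had 0 of 79 methylated calls in WT, which allows a level of up to 4.64%, and 36 of 49 (73.5%) in TCKO (Fisher exact test, adjusted p = 4.33e-18). The called bin nearest to the TSS was that at 22.5 kb upstream, from 52.4% to 92.9%, which at 40.5 points lay just inside the threshold.

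The annotation gives Mef2c several starts, and they behaved differently. The upstream start used above was methylated in both libraries over its 1 kb window. The 250 bases just before it hold 1 CG, with 7 of 18 methylated calls in WT and 12 of 13 in TCKO. Around a start 20.5 kb further downstream, which had 162 CG cytosines, the level within 1 kb was 0.910% in WT (1099 calls) and 2.36% in TCKO (806 calls). The start 68.3 kb downstream had 57.4% (598 calls) and 83.4% (445 calls), and that 149 kb downstream, within a group of called bins, had 48.8% (324 calls) and 86.5% (252 calls). These were the largest gains among the starts, 26.0 and 37.7 points, and both windows hold called bins. The start at 19.4 kb had 24.8% and 31.0% (6.21 points), and the differences at the starts at 26.1, 69.6, 71.1 and 122 kb lay between 8.71 and 18.4 points. The start rich in CG was nearly free of methylation in both libraries.

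At Pax3 (ENSMUSG00000004872, chromosome 1 from 78101267 to 78197134, minus strand), 2 of the 6 called bins lay in intron 4 and 4 lay beyond the 3′ end of the gene. The bin printed above, 23.1 kb into the gene, had the largest gain, from 3.49% (3 of 86 calls) to 55.2% (69 of 125; 51.7 points; Fisher exact test, adjusted p = 3.50e-14), and was the nearest to the TSS. The bin at 24.5 kb rose from 15.3% to 56.2% (40.9 points; Fisher exact test, adjusted p = 7.81e-06). The bins past the 3′ end lay 104 to 116 kb from the TSS and rose to between 76.9% and 92.0% in TCKO. Pax7 (ENSMUSG00000028736, chromosome 4 from 139737062 to 139833528, minus strand), which marks muscle stem cells, had 1 called bin, 13.4 kb upstream, from 11.5% (3 of 26) to 66.7% (16 of 24; Fisher exact test, adjusted p = 0.00298). Another Pax7 bin, 114 kb after the TSS, rose by 39.4 points and so stayed just outside the threshold.

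Outside these bins the broad low domains of both paired-box genes were low in TCKO as well. In steps of 5 kb from the TSS, Pax7 had 5.70%, 5.75% and 6.71% in WT and 3.75%, 3.67% and 4.78% in TCKO, with 691 to 1315 calls per window and library. At Pax3 the 5 kb before the TSS had 3.33% and 3.22%, the 5 kb after it 16.9% and 13.7%, and the next 5 kb 12.6% and 7.78%. The levels in TCKO were thus as low or lower over these windows. They cover different 15 kb, all after the TSS at Pax7 but from 5 kb before to 10 kb after it at Pax3. The windows next to them went both ways. Pax3 from 10 to 15 kb had 61.8% and 69.3%, and the 5 kb before the TSS of Pax7 had 12.8% and 13.8%. On the other side, Pax3 from 10 to 5 kb before its TSS had 18.4% and 11.8%. Pax7 from 15 to 20 kb after its TSS had 60.7% and 56.6%. From 20 to 25 kb after its TSS, where the called bins of intron 4 lie, Pax3 had 44.9% and 63.9%.

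**Figure D4:**
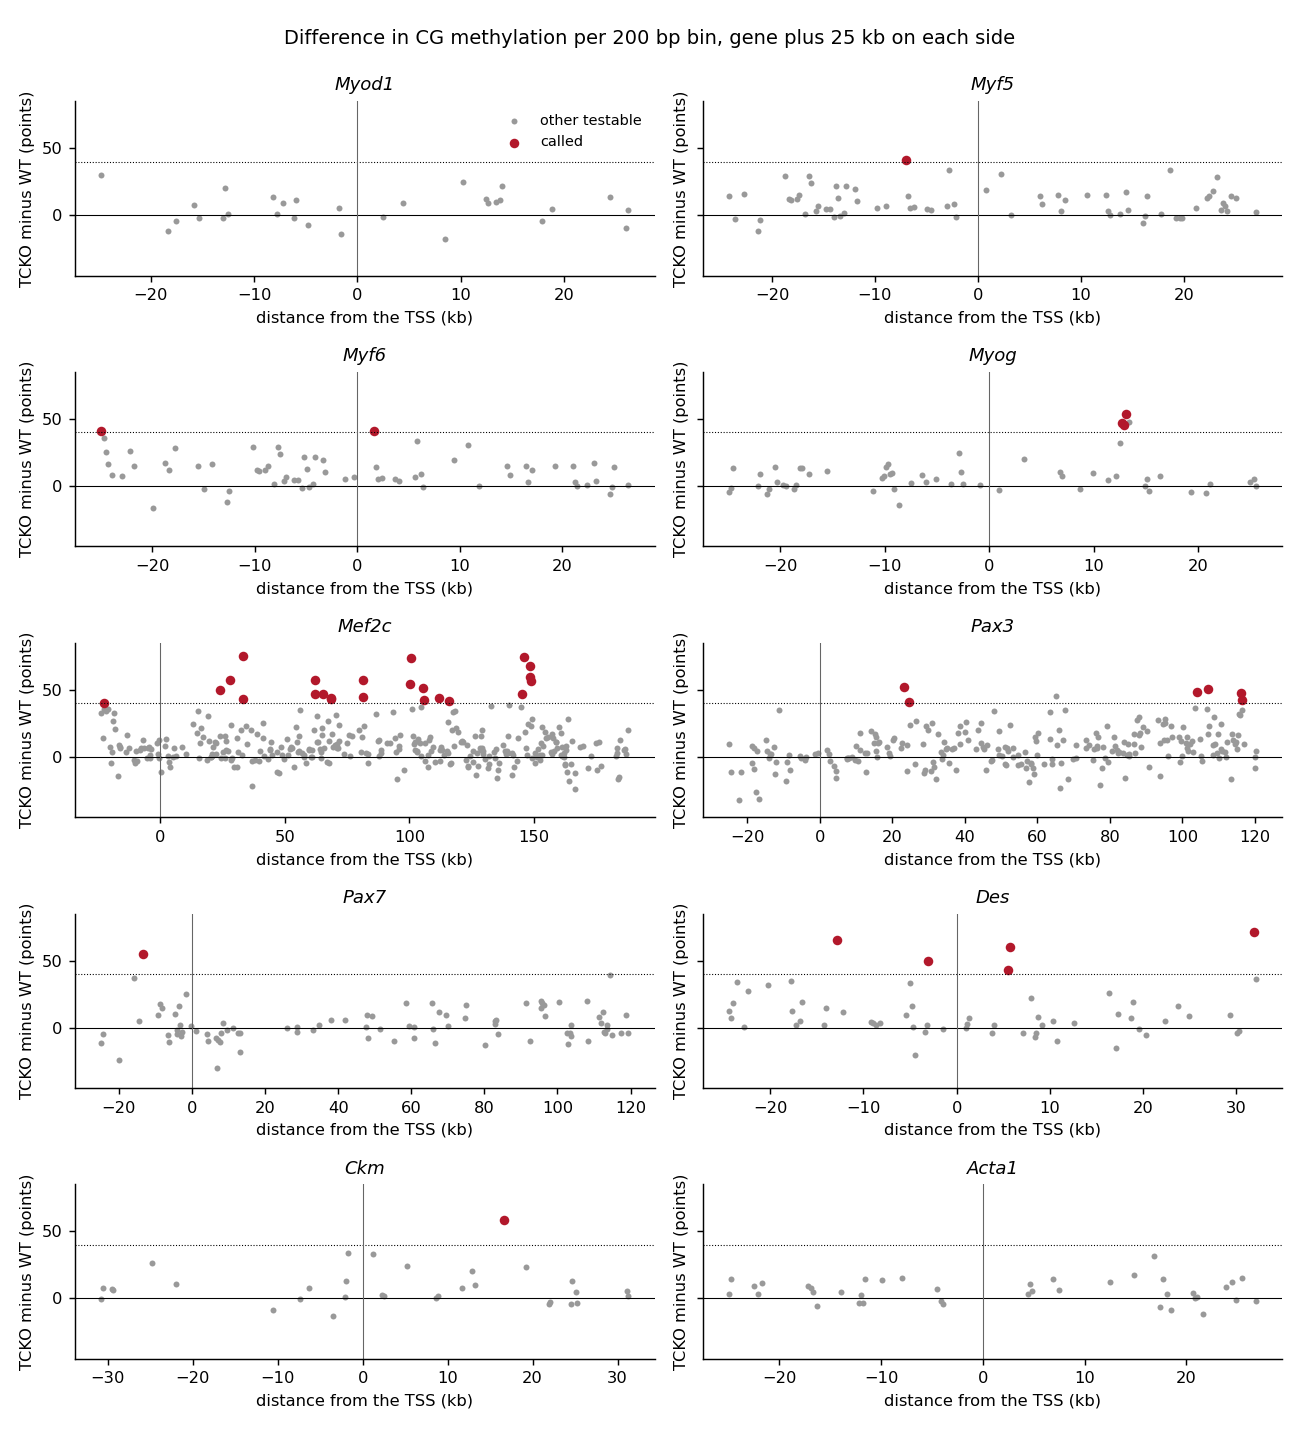
Difference in CG methylation (TCKO minus WT, percentage points, y axis) of each testable 200 bp bin by distance from the TSS (kb, x axis) for the 10 genes with 25 kb on either side. Red points are called bins, grey points the other testable bins, and the dotted line marks 40 points. Called bins are spread along Mef2c, lie within Des and on both sides of it, and form 1 group downstream of Myog.

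The myogenic factor genes had few called bins. Myf5 (ENSMUSG00000000435) and Myf6 (ENSMUSG00000035923) lie next to each other on the minus strand of chromosome 10, from 107482908 to 107486134 and from 107492853 to 107494737, and their regions shared a called bin from 107493001 to 107493200 in the non-coding part of an exon of Myf6. This bin, 1.64 kb after the TSS of Myf6 and 6.97 kb before that of Myf5, rose from 24.3% (37 of 152 calls) to 65.5% (91 of 139; 41.1 points; Fisher exact test, adjusted p = 3.86e-10). The other bin of Myf6 lay at -24963 bp from the TSS, in intron 43 of Ptprq and rose from 48.4% to 89.7% (41.3 points; Fisher exact test, adjusted p = 0.0158). Both lay just inside the threshold. Myog (ENSMUSG00000026459, chromosome 1 from 134289989 to 134292548, plus strand) had 3 called bins that adjoin each other, 12.7 to 13.1 kb after its TSS in intron 25 of the neighbour Ppfia4. They rose from 17.1%, 17.6% and 23.1% to 64.3%, 63.2% and 76.5% on 17 to 42 calls each (Fisher exact test, adjusted p from 0.00119 to 0.0323). Myod1 (ENSMUSG00000009471, chromosome 7 from 46376474 to 46379099, plus strand) had none, and 19 of its 30 testable bins (63.3%) were higher in TCKO by any amount, beside 68.1% of all testable bins.

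Des (ENSMUSG00000026208, chromosome 1 from 75360329 to 75368579, plus strand) had called bins on both sides and within the gene. The bin printed above, 3.03 kb upstream, rose from 30.2% (16 of 53 calls) to 80.0% (48 of 60; 49.8 points; Fisher exact test, adjusted p = 1.16e-05). A bin 12.8 kb upstream had 0 of 33 methylated calls in WT and 19 of 29 (65.5%) in TCKO (Fisher exact test, adjusted p = 5.36e-07). In intron 7, adjacent bins rose from 43.6% to 86.6% and from 34.9% to 94.9%. The start itself held no testable bin between the bins at -1429 and 971 bp, so no bin there could be called. The largest gain, 71.0 points, lay 32.0 kb after the TSS in intron 6 of the neighbour Speg, itself a gene of striated muscle, from 12.8% to 83.8% (Fisher exact test, adjusted p = 5.80e-08). Ckm (ENSMUSG00000030399, chromosome 7 from 19404776 to 19422841, plus strand) had 1 called bin, 16.7 kb after its TSS in an intron of Mark4, from 17.2% (5 of 29) to 76.0% (19 of 25; Fisher exact test, adjusted p = 9.06e-04). Acta1 (ENSMUSG00000031972, chromosome 8 from 123891769 to 123894751, minus strand) had none.

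The bins were also grouped by their WT level. Of all testable bins below 20% in WT, 36.4% were called higher and 36.4% were still below 20% in TCKO. Of the 93 such bins at the muscle genes, 16 (17.2%) were called and 58 (62.4%) were still below 20%. Most of these were at the paired-box genes: 20 of 23 at Pax7 (87.0%) and 28 of 43 at Pax3 (65.1%) were still below 20%. At Mef2c, by contrast, 8 of 15 low bins were called. Between 20% and 60% in WT, 25 of 216 bins (11.6%) were called, beside 10.1% of all bins, and 15 of these were among the 58 at Mef2c (25.9%). Of the 687 bins at 60% or more, which had little room to gain 40 points, 0 were called (Fisher exact test), beside 0.00360% of all bins.

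**Figure D5:**
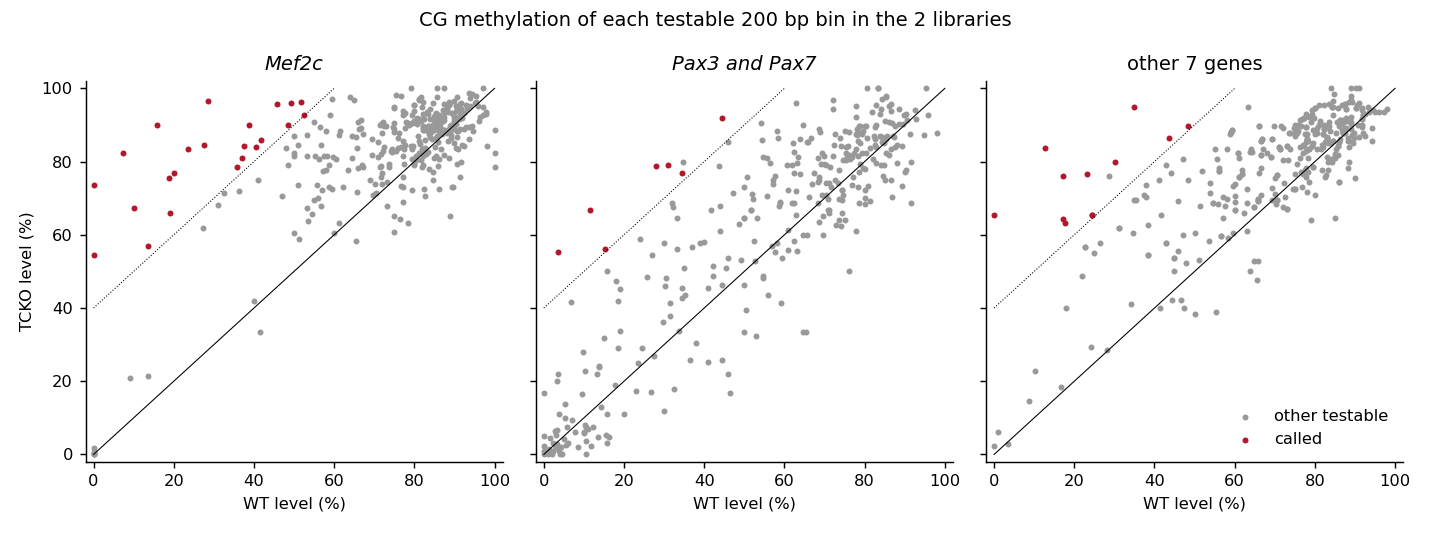
CG methylation of each testable 200 bp bin in TCKO (%, y axis) against WT (%, x axis) for Mef2c, for Pax3 and Pax7, and for the other 7 genes. Red points are called bins, the solid line is equality and the dotted line a gain of 40 points. Bins low in both libraries are mainly those of Pax3 and Pax7.

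Letters of 4 binding motifs were searched on both strands in these bins. CAGCTG was in 4 of the 41 called bins (9.76%) and in 64 of the 955 other testable bins of the muscle genes (6.70%), beside 9.75% of all called and 6.25% of all testable bins. The RUNX motif AACCACA was in 3 of 41 (7.32%) and 45 of 955 (4.71%), the AP-1 motif TGACTCA in 3 of 41 (7.32%) and 25 of 955 (2.62%), and the TEAD motif CATTCCA in 2 of 41 (4.88%) and 27 of 955 (2.83%). None of the 5 bins printed above held any of them. With 2 to 4 matches among the called bins, no preference can be read at this number.

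The values of the regulators and of the structural genes overlapped. The median difference at the TSS was 4.51 points for the 7 regulators and 5.21 points for the 3 structural genes, and over the body 4.51 and 2.61 points. Both signs turn under another window or averaging. Of the testable bins, 35 of 864 (4.05%) were called at the regulators and 6 of 132 (4.55%) at the structural genes. Without Mef2c the regulators had 12 of 515 (2.33%). Each group held genes whose start or body was called higher: Myf5, Myf6 and Mef2c among the regulators, the last over the body only, and Des. Each also held genes with neither called: Myod1, Myog, Pax3 and Pax7 among the regulators, and Ckm and Acta1. Of these, Myog, Pax3, Pax7 and Ckm still had called bins. Genes are not replicates, and with 3 structural genes no test was made.

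A wider list of 66 other skeletal muscle genes, also chosen with earlier results of these data known, gave the setting for the 10. Of these, 19 start windows (28.8%) were called higher and 0 lower, beside the 16.1% of all genes, and the median difference was 7.08 points. Differences were above 0 at 61 of the 66, beside 71.4% of all start windows. The called windows comprised 5 of 23 regulators (21.7%) and 14 of 43 structural genes (32.6%), and the background share was not matched for starting level or CG content. The largest gains among the regulators were at Mymk, the gene of the myoblast fusion protein myomaker (40.8% to 77.1%; Fisher exact test, adjusted p = 1.25e-10), Hdac9 (23.6 points, adjusted p = 6.46e-05), Eya2 (19.3 points, adjusted p = 1.00e-07) and Met (14.2 points, adjusted p = 0.00288). HDAC9 and EYA2 are co-regulators of muscle transcription, and MET is a receptor of migrating muscle precursors. Among the structural genes the largest gains were at Mybpc1, which encodes a myosin-binding protein C (43.5% to 77.4%; Fisher exact test, adjusted p = 1.39e-21), the calcium channel gene Cacna1s (27.4 points, adjusted p = 7.43e-07), and the myosin heavy chain genes Myh8 (25.2 points, adjusted p = 2.09e-07) and Myh1 (25.2 points, adjusted p = 6.83e-12). Gene bodies were called higher at 16 of 66 (24.2%) and lower at 0, beside 15.0% and 0.722% of all bodies. With 25 kb on either side, 370 of 9198 testable bins (4.02%) were called higher and 0 lower, beside 2.87% and 0.0355% of all bins. Among the 8 osteoblast genes, 3 start windows (37.5%; Runx2, Ibsp and Spp1) and 5 bodies (62.5%) were called higher, beside 16.1% and 15.0% of all genes, so gains of this kind were also found at genes of the cells' own lineage.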

How the data were processed

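CG methylation was measured by WGBS in 1 WT and 1 TCKO library, grouped by their genotype labels. Reads were mapped by the authors to GRCm38 with BSMAP 2.74, and those with a unique position were retained. The deposited tables give a raw count of all calls and of methylated calls for every CG cytosine, strands apart. CASAVA is named in the submitters' processing notes. No source used here describes duplicate removal, so intervals cover counting error only, and calls on 1 read are not independent. Whether animals were pooled is not given in the sources used here.

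Calls were pooled per region. Starts (TSS) were the 5′ ends of the best ranked APPRIS transcript in GENCODE M21, and bodies ran from there to the gene's end. Windows needed 20 calls in each library. Wilson and Newcombe intervals are at 95%. P-values of the 2-sided Fisher exact test were adjusted by Benjamini-Hochberg over all genes or bins, and the code was tested on simulated data. Bins of 200 bp and the minimum of 40 points follow the study's rule. Its 4 CG sites were taken as 4 cytosines with strands apart, a read minimum was added, and bins were not merged. Members and lists were chosen with earlier results of these data known. All 10 genes were named, with each one's called bin of largest gain and that nearest the TSS, and the 4 regulators and 4 structural genes of the wider list with the largest called TSS gains. Sequences came from GRCm38 and RefSeq. The alternative with the 5′ end of the gene model as TSS was added after seeing the data. Tools were Python 3.11.15 with scipy 1.17.1, numpy 2.4.6, matplotlib 3.10.9 and numba 0.67.0.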

Additional observations from a re-analysis of the deposited data

How the results depend on the processing

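No paired analysis was possible because there is 1 library per genotype, and no replicate could be left out. The count of 41 called bins became 4 where cytosines had to be read 10 times on average (1.62% of 247 bins, beside 1.91% of all bins), 69 at a minimum of 30 points, 19 at 50 points and 14 with at least 8 CG cytosines. Under the other alternatives tried it stayed within 1.5 times, but with at least 1 read per cytosine the share fell to 2.83% of 2086 bins, beside 2.58% of all bins. The 3 called start windows became 1 with 500 bp on each side and 1 at a minimum of 20 points, the 4 called bodies became 1 at 20 points, and the 19 called windows of the wider muscle list became 12 with 500 bp and 30 with 2 kb on each side. The median of regulators minus structural genes at the TSS turned from -0.70 points to 0.42 with 500 bp and 7.35 with the 5′ end of the gene model. Over the body it turned from 1.90 points to -2.48 as the mean of cytosine levels.

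Of 79 start differences under alternatives, 60 kept their sign and call, 10 reversed, 6 lost and 3 gained the call. Of 39 body differences, 32 were kept, 3 reversed and 4 lost the call. With 500 bp on each side Myod1 was at 3.41 points, Ckm at -1.76 and Acta1 at 5.30. As the mean of cytosine levels Myod1 was at 25.3 points, Mef2c at -0.83 and Pax7 at -0.67. With the 2 kb upstream Pax3 was at 2.08 points and Acta1 at 2.18, and with the 5′ end of the gene model Pax3 was at 0.81 and Ckm at -2.85. For the body, Myod1 was at -9.87 points as the mean of cytosine levels and at -10.8 without the first 2 kb, where Acta1 was at 0.62. None of the differences that reversed had been called. The start differences of Myf5, Myf6 and Des kept their sign under every alternative tried. The causes of these changes were not tested. With a median of 4 calls per cytosine, the level of most single cytosines is known only coarsely.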
